A study of Mus musculus with 2 samples.

Results

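The genes described here are the ligands and receptors of the tumour necrosis factor (TNF) superfamily, with the TRAF adaptors that bind the receptors inside the cell. They were chosen by name: a probe was taken when its single gene symbol began with Tnfrsf, with Tnfsf or with Traf and a digit, or was Tnf, Lta, Ltb, Ltbr, Cd27, Cd70, Cd40, Cd40lg, Fas, Fasl, Ngfr or Eda. The rule found 44 of 4654 probes with a single symbol, which stand for 38 of 4331 genes: 19 receptors, 14 ligands and 5 TRAF adaptors. The rule reads names and no measured value, though the family was picked for description with earlier results of these data known. Of these genes 32 had 1 probe and 6 had 2. Some of the receptors, ligands and TRAF adaptors looked for matched no probe and were not analysed here. These were Eda, Tnfrsf13c, Tnfrsf14, Tnfrsf21, Tnfrsf22, Tnfrsf23, Tnfrsf26, Tnfsf13, Tnfsf15, Tnfsf18, Traf3 and Traf7.

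The RNA came from CD4+ alpha beta T cells of mouse spleen, in a direct comparison of LatY136F with wildtype animals. LatY136F replaces a tyrosine by phenylalanine in Lat, the membrane adaptor through which the T cell receptor reaches its downstream signals. Cells were selected with anti-CD4 magnetic beads and a flow sorter, and total RNA of both genotypes was hybridised together on each of 2 two-colour arrays with the dyes reversed. Channel 1 of array 1 held the wildtype RNA and channel 2 the LatY136F RNA; array 2 had the channels exchanged. The labels give no strain, age or number of mice and do not say whether the arrays hold separate RNA extracts. The arrays were therefore counted as 1 comparison without a test, and the difference between them may be technical.

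Values are log2 ratios of LatY136F over wildtype, so 1 is a 2-fold difference. Where a mean is given, ± is 0.5 times the difference between the arrays. The direction of the deposited ratio is not stated by the labels. It was read as channel 2 over channel 1, which is the likely direction; under the opposite reading every "higher" below becomes "lower". The deposited columns correlated at -0.21 over all probes, and array 2 was multiplied by -1. CD4+ T cells of LatY136F mice are known for a T helper 2 bias, and Gata3, the transcription factor of that lineage, then stood at 2.95 on array 1 and 2.91 on array 2; it was named as a sign check with its value known. Lat stood at -0.16 and -0.17, which does not check the genotype because the mutation changes 1 amino acid. A ratio holds no level: in a bulk sample, fewer cells of a type and less RNA per cell cannot be told apart, and how bright a probe was is unknown.

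TNF superfamily ligands act mostly as trimers, on the cell surface or after release, and draw their receptors together. Receptors with a death domain can start apoptosis. Many receptors of the family, some with a death domain among them, recruit TRAF proteins and through them activate NF-kappaB and MAP kinases. On T cells several of these receptors serve as costimulators: CD27 is present on naive cells, whereas OX40 (Tnfrsf4), 4-1BB (Tnfrsf9) and CD30 (Tnfrsf8) are acquired on activation and GITR (Tnfrsf18) is prominent on regulatory and activated cells.

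Receptors lay toward both ends of the family, with a ligand, Tnfsf13b, highest and a costimulatory receptor, Cd27, lowest. A call required a difference of 2-fold or more, in 1 direction, on each of the arrays. Of the 38 genes, 5 were higher (Tnfsf13b, Ltbr, Tnfrsf18, Tnfrsf4 and Tnfsf8) and 2 were lower (Cd27 and Tnfrsf25). Over all 4331 genes 4.20% were higher and 0.970% lower, together 5.17%, against 18.4% of the TNF superfamily. No superfamily gene was 2-fold apart in opposite directions, beside 75 of all genes (1.73%), and Tnfsf4 fell just short of that. The arrays lay close together for the 7 called genes, with a ± of 0.11 at most, where the median over all genes was 0.15. The calling rule itself favours genes whose arrays agree, so this closeness lends no support to the calls.

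**Figure D1:**
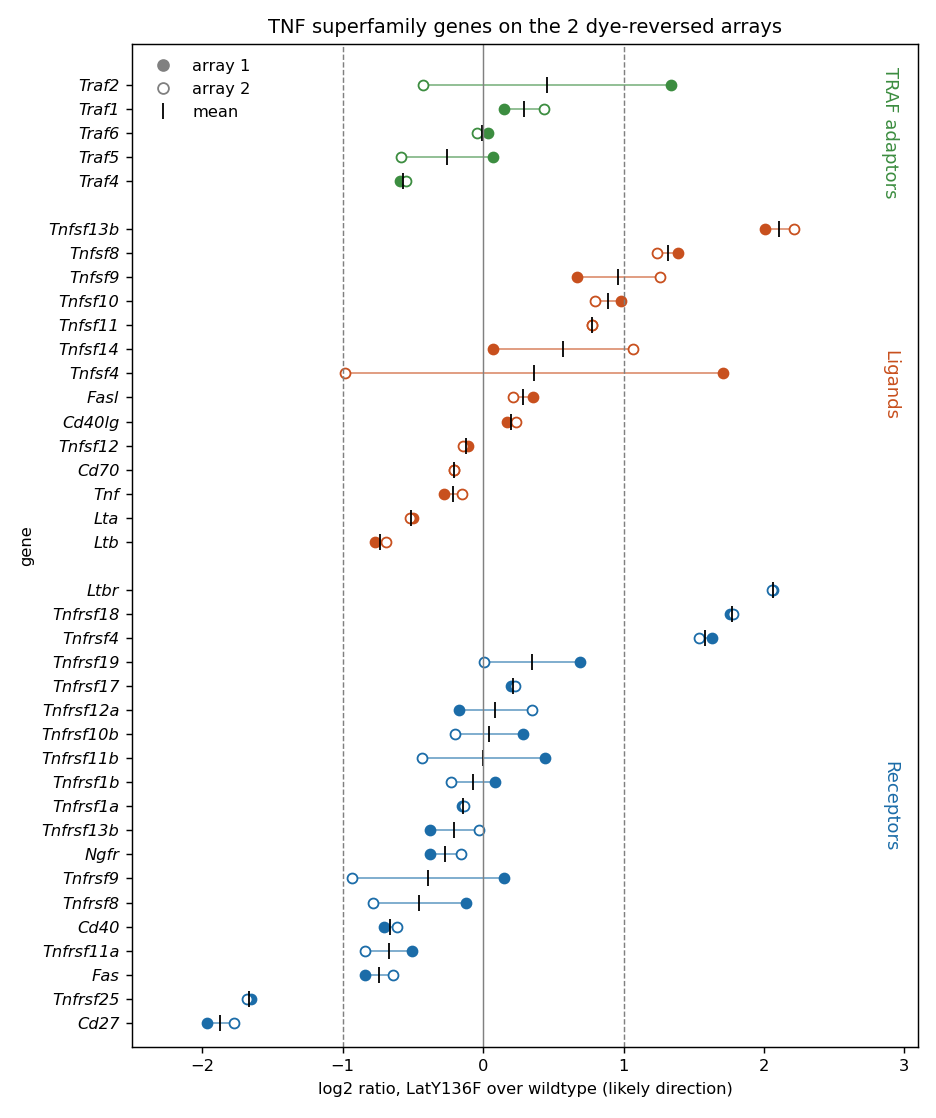
Log2 ratio of LatY136F over wildtype (x axis) for each of the 38 TNF superfamily genes (y axis), grouped as receptors, ligands and TRAF adaptors. Filled points are array 1, open points array 2, ticks their mean and dashed lines the 2-fold thresholds; 5 genes lie beyond 1 on both arrays, 2 lie beyond -1 and the arrays are widest apart for Tnfsf4, at 1.71 and -0.99.

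Among the costimulatory receptors, 2 of 6 were higher and 1 was lower, beside 4.20% and 0.970% of all genes. Tnfrsf18 (GITR, gene ID 21936) had log2 ratios of 1.76 on array 1 and 1.78 on array 2, a mean 3.41-fold higher in LatY136F cells. Tnfrsf4 (OX40, gene ID 22163) had 1.63 and 1.54, a mean of 1.58. Each receptor had nearly the same ratio on both arrays, and the means stand at ranks 68 and 90 from the top of all genes. Cd27 (gene ID 21940), the costimulator of naive and early memory T cells, had -1.96 and -1.78, or 3.66-fold lower. It is covered by 2 probes, which gave -2.28 and -1.99 at one and -1.65 and -1.56 at the other. Both probes alone would have passed the 2-fold rule.

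The other costimulatory receptors were not called. Cd40, the receptor through which B cells and dendritic cells receive T cell help, had -0.71 and -0.62. Tnfrsf8 (CD30) had -0.12 and -0.79, the same sign at very different sizes. Tnfrsf9 (4-1BB) had 0.15 and -0.93, with a change of sign between the arrays. Its 2 probes disagreed: one had -0.25 and -0.16, and the other 0.55 and -1.70. The activation receptors OX40 and GITR thus differed by 2-fold or more where CD30 and 4-1BB did not pass the threshold; whether the genes differ from one another was not tested.

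Of the 5 death-domain receptors taken by the naming rule, 1 was lower and none was higher, beside 0.970% and 4.20% of all genes. Tnfrsf21, which also has a death domain, matched no probe. Edar, another such receptor, lies outside the naming rule and had -1.67 and 0.02. Tnfrsf25 (DR3, gene ID 85030), the receptor for TL1A on T cells, had -1.65 and -1.68, which is 3.18-fold lower. After Cd27 it was the lowest of the 38 genes. Fas, the apoptosis receptor that limits activated lymphocytes, had -0.84 and -0.64. It lay below 0 on both arrays without reaching 2-fold. Ngfr, the low-affinity neurotrophin receptor, had -0.38 and -0.16, and Tnfrsf1a, the main death-domain receptor for TNF, -0.15 and -0.13. Tnfrsf10b, the TRAIL receptor of the mouse, had 0.28 and -0.20, and its 2 probes had opposite signs on each array. Except for Tnfrsf10b, each of these 5 receptors had negative ratios on both arrays, and their median was -0.27. Edar is not among the 5.

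Ltbr (gene ID 17000), the lymphotoxin beta receptor, was the highest receptor. It had 2.07 on array 1 and 2.05 on array 2, or 4.17-fold higher. Ltbr is known from stromal and myeloid cells and is largely missing from lymphocytes. Of 16 monocyte and macrophage markers 7 were called higher, beside 4.20% of all genes, and none lower. The median of these markers was 1.16. Their part in the ratio of Ltbr was not tested.

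None of the remaining receptors was called. Tnfrsf11a (RANK), the receptor for RANKL on osteoclast precursors and dendritic cells, had -0.51 and -0.84. Tnfrsf1b, the TNF receptor without a death domain that regulatory T cells carry, had 0.09 and -0.23. Tnfrsf11b, the soluble decoy osteoprotegerin, had 0.44 and -0.43, and Tnfrsf12a, the TWEAK receptor, -0.17 and 0.35. These last genes changed sign between the arrays. Tnfrsf19 had 0.69 and 0.003; 1 of its probes gave 1.54 and 0.61, the other -0.15 and -0.60. Among the receptors that B lineage cells use for survival factors, those measured were not called. Tnfrsf13b (TACI) had -0.38 and -0.03, and Tnfrsf17 (BCMA), the receptor of plasma cells, 0.20 and 0.23. Tnfrsf13c, which belongs with them, matched no probe, so its ratio is unknown.

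Over the 19 receptors the median ratio was -0.14, with 8 means above 0 and 11 below. The 3 higher receptors lie between 1.58 and 2.06 and the 2 lower ones between -1.87 and -1.67. Over all genes the median was 0.0004. The 5 called receptors are 26.3% of those measured, beside 5.17% of all genes.

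The ligands had a median of 0.32, with 9 of 14 means above 0. Of the 14, 2 were higher and none was lower, beside 4.20% and 0.970% of all genes. Array 2 alone called 4 higher and array 1 alone 3. Tnfsf13b (BAFF, gene ID 24099), the survival factor of B cells, was the highest gene of the family, with 2.00 on array 1 and 2.22 on array 2. Its mean is 4.32-fold higher, rank 46 of all genes. BAFF is made mainly by myeloid and stromal cells, and 7 of 16 monocyte and macrophage markers were called higher as given above, while Ctss, Marco and Msr1 had means of -0.13, -0.34 and -0.45. The part of such cells was not tested. B cell markers were lower at the same time, with 8 of 14 called, beside 0.970% of all genes called lower, and a median of -1.26. Tnfsf8 (CD30 ligand, gene ID 21949) had 1.39 and 1.24, or 2.49-fold higher. Its 2 probes gave 1.29 and 1.33, and 1.49 and 1.15, so each passed 2-fold alone.

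Another 3 ligands lay above 1.5-fold on both arrays without reaching 2-fold on both. Tnfsf10 (TRAIL), a ligand of death receptors, had 0.98 and 0.80. Tnfsf11 (RANKL), which T cells produce on activation, had 0.78 and 0.77. Tnfsf9 (4-1BB ligand) had 0.67 and 1.26. With this lower threshold the superfamily has 8 higher and 5 lower genes, 34.2% of 38, where 7.83% of all genes were higher and 2.93% lower.

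Tnf and the lymphotoxins, which lie next to each other in the genome, were all below 0. Ltb, the membrane-bound lymphotoxin subunit, had -0.77 and -0.69 and was past 1.5-fold on both arrays. Lta, lymphotoxin alpha, had -0.50 and -0.52, and Tnf itself -0.28 and -0.15. None reached 2-fold. Cd70, the CD27 ligand, had -0.21 on each array, and Tnfsf12 (TWEAK) -0.11 and -0.14. Cd40lg, the molecule by which helper T cells activate B cells, had 0.17 and 0.23, and Fasl, the Fas ligand, 0.35 and 0.21. The largest of these last 4 differences, that of Fasl, was 1.22-fold by the mean.

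For the remaining ligands the arrays did not give 1 answer. Tnfsf4 (OX40 ligand) had 1.71 on array 1 and -0.99 on array 2, the widest gap of the family. Tnfsf14 (LIGHT) had 0.07 and 1.06. In neither case does the mean describe both arrays.

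No TRAF adaptor was called, beside 5.17% of all genes. Traf1, the adaptor that NF-kappaB itself induces, had 0.15 and 0.44. Traf2, which links TNF receptors to the kinases of the NF-kappaB and JNK pathways, had 1.34 and -0.43, so its sign changed and array 1 alone would call it higher. Traf4 had -0.59 and -0.55, with both probes below 0 on both arrays. Traf5, an adaptor of OX40 and CD27, had 0.07 and -0.58, and Traf6, the adaptor shared with Toll-like and interleukin-1 receptors, 0.03 and -0.05. The 5 adaptors had a median of -0.01, and 2 of 5 kept 1 sign.

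The genes called were 5 of 19 receptors, 2 of 14 ligands and 0 of 5 adaptors, beside 5.17% of all genes. The differences between these shares were not tested. With 5 adaptors, a count of 0 does not set them apart from all genes. The arrays had the same sign for 14 of 19 receptors, 13 of 14 ligands and 2 of 5 adaptors, in all 76.3% of the superfamily beside 55.8% of all genes. Pearson's r between the arrays was 0.76 across the 38 genes and 0.33 across all 4331; genes on the same arrays are no independent replicates. Without the 7 called genes r was 0.28, over 31 superfamily genes.

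**Figure D2:**
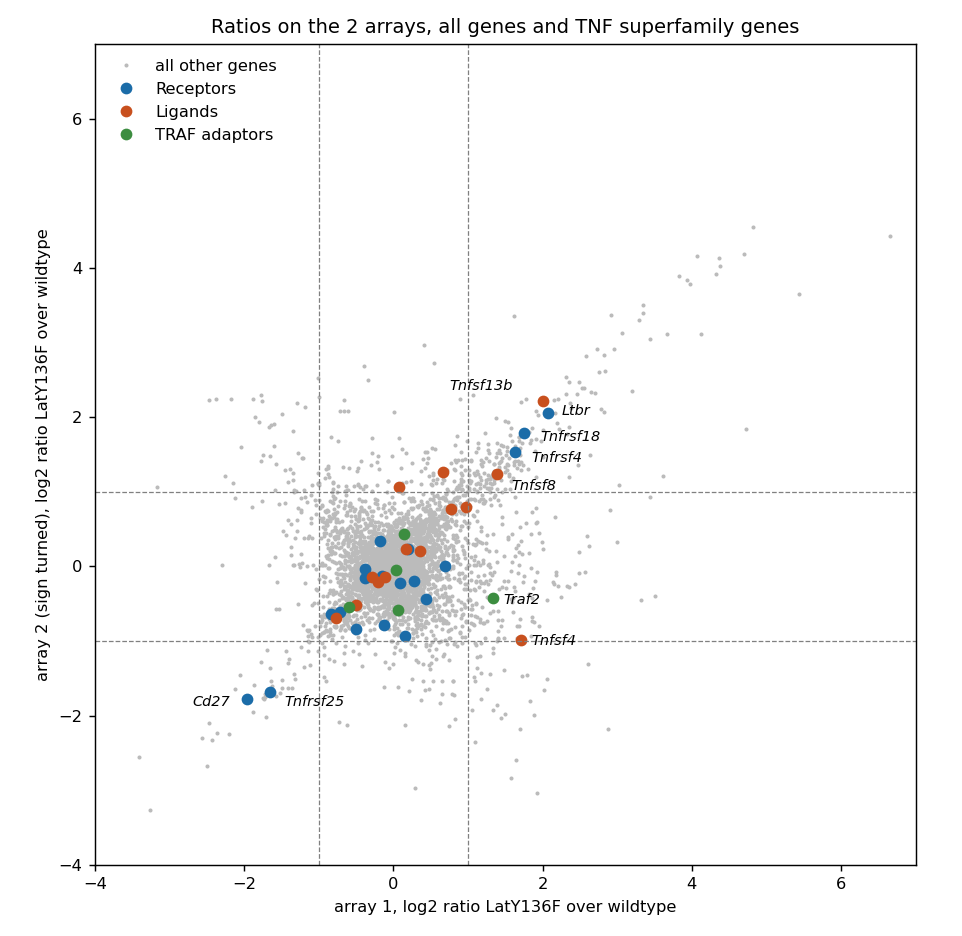
Log2 ratio of LatY136F over wildtype on array 1 (x axis) and, with its sign turned, array 2 (y axis), one point per gene; grey points are all other genes, coloured points the TNF superfamily, and dashed lines mark 2-fold. The 5 higher and 2 lower superfamily genes lie near the diagonal, while Tnfsf4 and Traf2 lie to the lower right, with opposite signs on the arrays.

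Known ligand and receptor partners were then set side by side, 18 pairs with both members measured. In none were both called: the ligand alone was called in 3, the receptor alone in 4 and neither in 11. The pairs share genes, as Tnfsf13b and Ltbr each stand in more than 1 pair. With 2 of 14 ligands and 5 of 19 receptors called, beside 5.17% of all genes, a count of 0 says little about the pairs. In 5 pairs all 4 ratios had 1 sign, in 6 the ligand and the receptor had opposite signs on both arrays, and in 7 a member changed sign between arrays. CD30 ligand was 2.49-fold higher while its receptor stood at -0.45 ± 0.33. BAFF was 4.32-fold higher, with its measured receptors TACI at -0.21 ± 0.17 and BCMA at 0.21 ± 0.01, while Tnfrsf13c matched no probe. Conversely Ltbr was 4.17-fold higher while its ligand subunit Ltb stood at -0.73 ± 0.04. Its other ligand among the pairs, Tnfsf14, stood at 0.57 ± 0.50, with the sign of Ltbr on both arrays. CD27 was 3.66-fold lower with its ligand Cd70 at -0.21.

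Opposite signs below the 2-fold threshold were seen for Fasl (0.28 ± 0.07) with Fas (-0.74 ± 0.10). They were also seen for Cd40lg (0.20 ± 0.03) with Cd40 (-0.66 ± 0.05), and for Tnfsf11 (0.78) with Tnfrsf11a (-0.67 ± 0.17). Cd40 is a B cell gene, and B cell markers were lower as given above; their part was not tested. Tnf stood at -0.21 ± 0.07, and its receptors Tnfrsf1a and Tnfrsf1b at -0.14 and -0.07.

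**Figure D3:**
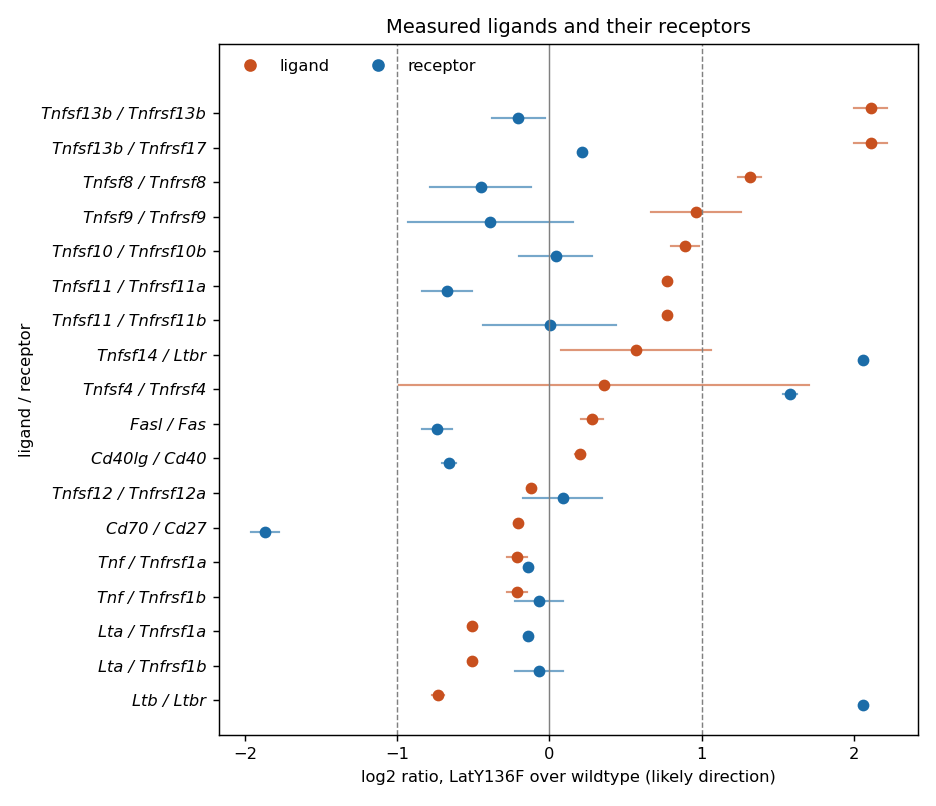
Mean log2 ratio of LatY136F over wildtype (x axis) for 18 known ligand and receptor pairs (y axis), ligands in orange and receptors in blue; each line joins the values of the 2 arrays and dashed lines mark 2-fold. No pair has both members beyond 2-fold on both arrays, and Ltbr lies at 2.06 with its ligands Ltb at -0.73 and Tnfsf14 at 0.57.

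Position in the genome was compared next, which the choice by name did not use. In RefSeq gene order (GRCm38.p6) Tnfrsf4 and Tnfrsf18 follow each other with no protein-coding gene between, and both were higher. Cd27 and Ltbr are separated by 1 protein-coding gene and lay at opposite ends, -1.87 and 2.06. Tnfrsf1a, again 1 gene further along, stood at -0.14. The ligand genes Tnfsf9, Cd70 and Tnfsf14 are also adjacent, at 0.96, -0.21 and 0.57. Tnfrsf1b and Tnfrsf8, with no protein-coding gene between, stood at -0.07 and -0.45. Tnfsf4 and Fasl, with 1 protein-coding gene between, had means of 0.36 and 0.28, but Tnfsf4 changed sign between the arrays. Neighbouring superfamily genes thus had 1 sign on both arrays at Tnfrsf4 with Tnfrsf18 and at Tnf with Lta and Ltb, while the other neighbours did not.

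The sequence before the start of each of the 4 receptor genes in these neighbouring pairs is shown because the first pair moved together and the second moved apart. All are 5′ to 3′ on the gene's strand, from RefSeq (GRCm38.p6), and bases inside the RefSeq gene span were left out. Capitals mark a match to the NFAT core searched below.
Tnfrsf4, chr4:156013445-156013594, plus strand: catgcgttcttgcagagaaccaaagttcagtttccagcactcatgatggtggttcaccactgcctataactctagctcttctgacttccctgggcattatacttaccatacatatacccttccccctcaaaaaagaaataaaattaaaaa
Tnfrsf18, chr4:156026072-156026321, plus strand: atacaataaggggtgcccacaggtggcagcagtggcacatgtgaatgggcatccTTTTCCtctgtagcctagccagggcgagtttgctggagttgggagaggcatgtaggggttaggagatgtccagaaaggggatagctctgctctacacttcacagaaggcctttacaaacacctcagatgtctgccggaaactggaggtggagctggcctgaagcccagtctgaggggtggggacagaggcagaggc
Cd27, chr6:125237137-125237277, minus strand: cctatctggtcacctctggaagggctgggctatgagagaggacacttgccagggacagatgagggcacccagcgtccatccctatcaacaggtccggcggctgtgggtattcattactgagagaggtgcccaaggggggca
Ltbr, chr6:125313886-125314135, minus strand: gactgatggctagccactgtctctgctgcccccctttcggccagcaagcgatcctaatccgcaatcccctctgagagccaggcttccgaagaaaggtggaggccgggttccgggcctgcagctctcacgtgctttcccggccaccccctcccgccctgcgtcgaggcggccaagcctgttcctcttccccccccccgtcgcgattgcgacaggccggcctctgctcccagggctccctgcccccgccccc

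Motifs of factors that act below the T cell receptor and TNF receptors were searched on both strands in the 250 bases before each transcript start of the promoter table, for the 30 superfamily genes it holds. Some starts lie within the gene: of 34 windows, 18 lie wholly before the RefSeq gene span, 9 partly and 7 wholly inside it. GGAAAA, the NFAT core, was found in 9 of 30 genes (30.0%), beside 22.9% of 27025 genes. Among the 7 called genes it was found in Tnfrsf18, Cd27 and Tnfrsf25. TGANTCA, an AP-1 motif, was found in 5 of 30 (16.7%, beside 7.82% of all), and of the called genes in Tnfsf13b. The kappa B consensus was found in 4 of 30 (13.3%, beside 8.23% of all), and of the called genes in Tnfrsf25. Of these matches in called genes, that of Tnfrsf18 lies before the gene span, while those of Cd27, Tnfrsf25 and Tnfsf13b lie inside it and are not printed. The motifs can overlap. The higher pair Tnfrsf4 and Tnfrsf18 shared no match, as Tnfrsf4 had none of the 3. A match is a description of letters and not a binding site.

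Genes that act with the superfamily were counted from lists, to be read beside the 5.17% called over all genes. Of 21 genes of the TNF receptor complex and death signalling none was called, with a median of -0.01. The apoptosis inhibitor Xiap had the mean furthest from 0 but values of -0.99 and 2.27, and Ikbke, a kinase related to the IkappaB kinases, had -0.47 and -0.52. Of 13 NF-kappaB subunits, kinases and inhibitors none was called either, with a median of 0.14. Nfkbia, the inhibitor IkappaB alpha and itself an NF-kappaB target, had 0.77 and 0.64, the only one of the 13 beyond 1.5-fold on both arrays. None of 4 genes of shedding and processing was called. Rhbdf2, a partner of the TNF-releasing protease, had 0.91 and 0.54, and Adam17, that protease, 0.76 and -0.03.

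Of 24 genes known to be induced by TNF 6 were called higher, beside 4.20% of all genes, and none lower, with a median of 0.34. The difference from the other lists was not tested. They were led by the growth factor Csf1 (4.82 and 4.55), the cytokine Il6 (5.43 and 3.65), the early response gene Ier3 (4.38 and 4.03) and the chemokine Cxcl2 (1.38 and 1.99). Many other signals induce these genes, and the list was drawn up with the ratios of several of them known. Vcam1 (1.64 and 1.41), one of the 6, is also among the 7 monocyte and macrophage markers called higher. Of 4 measured genes tied to the family by name or function but outside the naming rule, Litaf, named for a proposed role in TNF transcription, was higher at 2.20 and 2.24. Edar, the ectodysplasin receptor, had -1.67 and 0.02.

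Marker genes of some other cell types differed between the genotypes. The counts are to be read beside the 4.20% of all genes called higher and the 0.970% called lower. Ratios give no level in either group, so whether a marker was absent is unknown. Monocyte and macrophage markers ranged from -0.45 to 2.48, led by C1qc at 2.48 ± 0.08. Of 6 neutrophil markers 3 were higher (median 1.71), and of 5 erythroid markers 2 were higher (median 0.84). B cell markers ranged from -2.29 to -0.18, led by Cd79b at -2.29 ± 0.18. Of 7 plasma cell markers 1 was higher and 2 were lower (median 0.93), and of 9 dendritic cell markers 1 was higher and 1 lower (median 0.08). Of 6 natural killer cell markers 1 was lower (median -0.28), as was 1 of 2 CD8 T cell markers, Cd8b1 at -2.22 ± 0.02. None of 10 CD4 T cell markers was called (median -0.04). What part these cells had in the ratios of the superfamily genes was not tested.

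**Figure D4:**
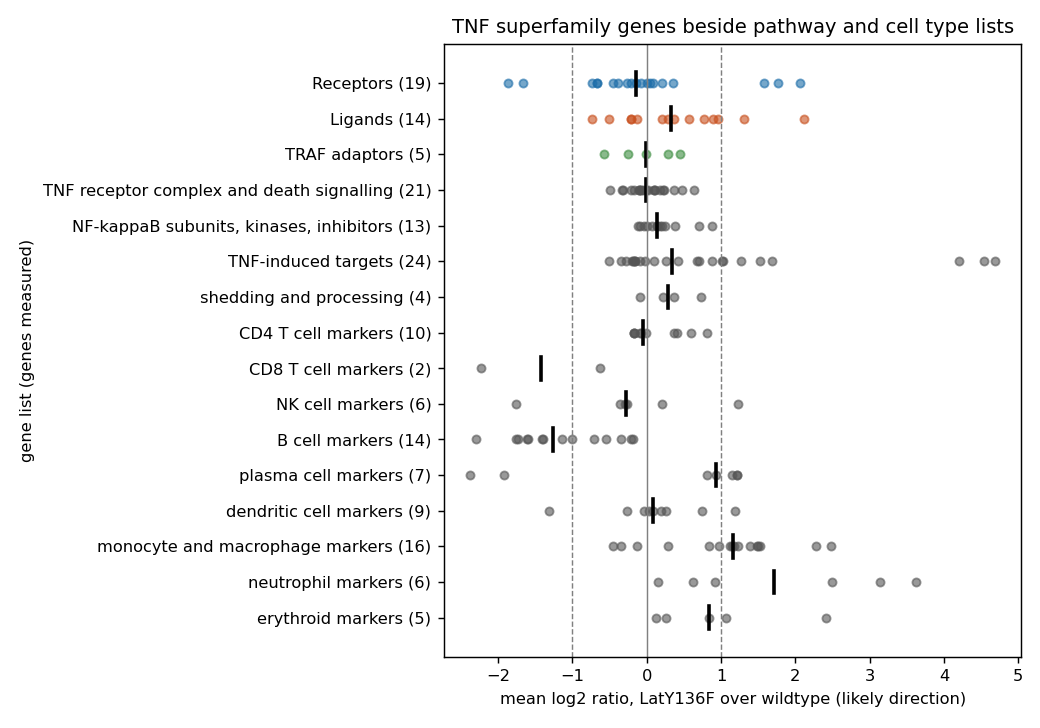
Mean log2 ratio of LatY136F over wildtype (x axis) for each gene of the TNF superfamily classes and of the pathway and marker lists (y axis, genes measured in brackets); points are genes, thick black bars medians and dashed lines 2-fold. Receptors spread to both sides (-1.87 to 2.06), death signalling genes stay between -0.49 and 0.64, and B cell and monocyte markers have medians of -1.26 and 1.16.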

How the data were processed

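The authors deposited 1 log ratio per probe and array (8014 probes, 2 arrays). The values were read as log10 because the highest on array 1 is exactly 2, a likely 100-fold limit; the sources used here do not give the base, background correction, normalization, filters or direction. The deposited log10 medians were -0.0033 and 0.0070. Per the labels, the arrays are a dye reversal. Conversion to log2 used a factor of 3.32, the sign of array 2 was turned, and the median over all probes was subtracted per array. By the platform annotation 4654 probes carry 1 gene symbol, 73 carry several and 3287 carry none; the last 2 kinds were not named. Probes of a gene were averaged. All 38 superfamily symbols matched the RefSeq gene table by gene ID. All superfamily genes are named, and from each list up to 4 genes beyond 1.5-fold on both arrays or the 2 furthest from 0; marker genes are named for some lists only. The naming rule uses no measured value, but the family and the lists were chosen with earlier results of these data known. The calling rule was run on simulated data with errors drawn separately for each array. Such a run cannot show errors shared by both arrays and lends no support to the calls above. Python 3.11.15, pandas 2.3.3 and numpy 2.4.6 were used. The number of arrays limits the precision.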

Additional observations from a re-analysis of the deposited data

How the results depend on the processing

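The 5 higher and 2 lower superfamily genes kept their calls without centring, with arrays scaled alike and with the strongest probe per gene. These settings could hardly change a call. Centring and scaling barely moved the called values, and each called gene has 1 probe or 2 that both pass 2-fold. On either array alone the called genes pass by construction. Leaving out probes at exactly 0 could change no call, as 0 superfamily probes held that value. Each array alone called 7 superfamily genes higher: array 1 added Tnfsf4 and Traf2, array 2 added Tnfsf9 and Tnfsf14. Ligands called higher were then 3 on array 1 and 4 on array 2; for TRAF adaptors array 1 alone called 1 higher (Traf2) and array 2 alone 0. A 1.5-fold threshold gave 8 higher and 5 lower genes (4 receptors lower, 5 ligands higher, 1 ligand lower), and 3-fold gave 3 higher genes, 1 of them a ligand, as such thresholds must. Turning the sign gave 2 higher and 5 lower genes (0 ligands higher, 2 lower) and the values Cd27 1.87, Tnfrsf25 1.67, Tnfsf8 -1.32, Tnfrsf4 -1.58, Tnfrsf18 -1.77, Ltbr -2.06 and Tnfsf13b -2.11. Read as log2, the table holds 0 higher and 0 lower superfamily genes (0 receptors, 0 ligands), so every fold depends on reading the values as log10. No paired analysis was possible because the design has no second group of arrays. With 1 comparison and unknown brightness, the precision of single ratios is unknown.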
